A study of Mus musculus with 16 samples.

Results

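Notch ligands, receptors and targets were followed in the RNA-seq libraries of Cul4b-deleted mouse intestinal epithelium. All 10 genes were taken by symbol from the count tables, with no threshold on a value: the ligands Jag1, Dll4 and Dll1, the receptors Notch1 and Notch2, the targets Hes1, Hey1 and Nrarp, and the secretory factors Atoh1 and Gfi1. They are 10 of the 54643 genes listed in any of the 3 tables, and each was found once in every table. Cul4b encodes the scaffold of a cullin-RING ubiquitin ligase and lies on the X chromosome.

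The 16 libraries of C57BL/6 small intestine fall into 3 experiments, each with its own WT group. In the crypts, 4 KOIEC libraries (pVillin-Cre; Cul4bfn/Y, in which the Villin promoter drives Cre throughout the intestinal epithelium from development onward) were set against 4 WT libraries (Cul4bfn/Y, the floxed allele without Cre). In the IEC organoids, epithelial cultures grown in Matrigel from such crypts, 2 KOIEC libraries were set against 2 WT libraries. In the CAG organoids, 2 KOCAG libraries were set against 2 WT libraries; there a CreERT2 under the ubiquitous CAG promoter deletes Cul4b after tamoxifen or 4-OHT, so the deletion is induced in grown cells and not tied to one epithelial cell type. Whether the WT organoids of the last experiment carried CreERT2 or received 4-OHT, the age of the mice behind each library and the culture medium are not given by the labels. The study describes its replicates as biological, while the labels tie no library to an animal or culture.

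Notch signals pass between touching cells. A ligand on one cell binds a receptor on its neighbour, the receptor is cleaved, and its intracellular part enters the nucleus, joins Rbpj and turns on targets such as Hes1. In the crypt, Hes1 represses Atoh1, so cells that receive the signal stay stem cells or become enterocytes, while cells that escape it express Atoh1 and ligands and become Paneth, goblet, enteroendocrine or tuft cells.

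Total counts ran from 9311734 to 13479974 in the crypt libraries, from 15006730 to 16881395 in the IEC organoids and from 7348191 to 10462275 in the CAG organoids. Levels are given as CPM, the counts of a gene scaled to a common library size with TMM factors, and differences as log2 fold changes of KO over WT with their SE from edgeR. A gene was called at an adjusted p under 0.05 over all genes tested. A count of 3, taken as the floor, was worth 0.223 to 0.322 CPM in the crypts, 0.178 to 0.2 CPM in the IEC organoids and 0.287 to 0.408 CPM in the CAG organoids, which covers counting error only.

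Cul4b itself followed the labels. Cul4b in the crypts stood at 31.7, 33.2, 38.3 and 32.3 CPM in WT and at 1.69, 0.993, 0.848 and 2.21 CPM in KOIEC. The WT levels of 83.2 and 73.2 CPM in the IEC organoids compared with 1.69 and 1.76 CPM in KOIEC, and in the CAG organoids 72.9 and 70.1 CPM compared with 3.34 and 5.19 CPM in KOCAG. No KO library overlapped a WT library in any experiment. It was the only gene called among the 13938 tested in the IEC organoids, at a log2 fold change of -5.50 (adjusted p = 0.0311).

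Several libraries stood apart. The crypt libraries fell into classes by their mitochondrial ribosomal RNA (mt-Rnr1 and mt-Rnr2 together): WT replicate 1 and KOIEC replicates 1, 2 and 3 held 18.9 to 25.3 CPM, WT replicate 4 and KOIEC replicate 4 held 833.7 and 1078 CPM, and WT replicates 2 and 3 held 2840 and 2873 CPM. Genotype and class are therefore unevenly mixed in the crypts, and crypt differences of the members and of 6 other genes named for the crypts are given within the low class (1 WT against 3 KOIEC libraries) and the middle class (1 against 1) beside the pooled values, with no test. The IEC organoids paired off by the same measure, with replicate 1 of WT and KOIEC at 1418 and 1241 CPM and replicate 2 at 2176 and 2467 CPM, while the CAG organoids lay between 920.1 and 1305 CPM. KOIEC crypt replicate 3 had the lowest sum of Paneth cell markers of the crypt libraries (2127 CPM, against 8836 to 22330 CPM in the other crypt libraries) and the highest of leukocyte markers (104.9 CPM), and KOIEC crypt replicate 4 the highest of tuft cell markers (255.5 CPM, against 34.3 to 63.8 CPM in the other crypt libraries). KOIEC organoid replicate 2 held goblet markers at 7034 CPM, against 1780 to 2093 CPM in the other 3 libraries. Epithelial markers (Epcam, Cdh1, Vil1, keratins) summed to 9931 to 11830 CPM in WT and 10780 to 12090 CPM in KOIEC crypts (1 of 7 called, higher, as 4.3% of all genes were), with Krt8 the most abundant. In both organoid experiments they were higher in KO without overlap, at 6966 to 8778 CPM in WT and 10300 to 10490 CPM in KOIEC organoids (0 of 7 called) and at 6747 to 7029 CPM in WT and 9223 to 10350 CPM in KOCAG organoids (5 of 7 called higher, as 18.1% of all genes were). The part of these markers in the differences below was not tested.

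The 3 experiments differed in what they could call. Of 9 members tested (Hey1 fell below the count filter everywhere), 0 were called in the crypts, where 6.96% of the 13427 genes tested were called, with 1 member (Hes1) at an unadjusted p under 0.05 in edgeR, as were 31.9% of all genes, and 0 by DESeq2. Of the same 9, 0 were called in the IEC organoids, against 0.00717% of all genes, with 1 member (Jag1) at an unadjusted p under 0.05, as were 4.66% of all genes, and again 0 by DESeq2. The CAG organoids gave 3 of 9, against 31.5% of the 13598 genes tested, so the share of members called was close to that of all genes. These 3 were Jag1 and Dll4, higher in KOCAG as 18.1% of all genes were, and Hes1, lower as 13.4% were. Only 1 of them, Jag1, was called by DESeq2 and in 1 fit of all 16 libraries. Jag1 alone also passed a fold change of 2, which 8.6% of all genes did in either direction and 6.36% upward. The median log2 fold change of the tested members was -0.10 in the crypts, -0.05 in the IEC organoids and -0.04 in the CAG organoids, and that of all genes tested lay between -0.01 and 0.00 in each.

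Jag1 and Dll4 were the ligands called in the CAG organoids, and Nrarp is a feedback target and an established direct target of the pathway. The sequences just before the gene starts of these genes are shown. They were read from RefSeq on GRCm38.p6, 5′ to 3′ on the strand of the gene, and end at the base before the annotated start. Capitals mark matches, on either strand, to TGGGAA (the core bound by Rbpj), CACGTG (an E-box) or CACNAG (an N-box, the kind of site bound by Hes1). Jag1 is shown at chr2:137116645-137116770 (minus strand), Dll4 at chr2:119325534-119325783 (plus strand) and Nrarp at chr2:25180508-25180757 (plus strand).
Jag1: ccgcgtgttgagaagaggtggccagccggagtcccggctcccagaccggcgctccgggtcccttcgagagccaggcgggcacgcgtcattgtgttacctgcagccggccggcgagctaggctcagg
Dll4: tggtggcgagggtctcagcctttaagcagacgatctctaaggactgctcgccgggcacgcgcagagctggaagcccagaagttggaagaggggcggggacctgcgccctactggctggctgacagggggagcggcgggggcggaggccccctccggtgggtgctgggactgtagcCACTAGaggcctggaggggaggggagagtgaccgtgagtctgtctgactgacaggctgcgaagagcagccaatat
Nrarp: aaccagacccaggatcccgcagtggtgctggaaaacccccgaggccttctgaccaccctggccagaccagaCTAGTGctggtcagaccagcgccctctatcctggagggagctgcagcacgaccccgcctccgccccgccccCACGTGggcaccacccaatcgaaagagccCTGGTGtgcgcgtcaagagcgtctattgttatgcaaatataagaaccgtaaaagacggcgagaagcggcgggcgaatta
The Jag1 sequence is shown for 126 bases, since the rest of its RefSeq window of 250 bases lies inside the gene as the count tables place it, and held none of the 3 motifs. The Dll4 window held an N-box, CACTAG, that begins 75 bases before the start. The Nrarp window held the E-box CACGTG 108 bases before the start and N-boxes at 179 and 79 bases before it, none of which overlap. Of the 10 members, 8 had windows in the reference table, 10 windows in all, and Hes1 and Hey1 had none. Over the 250 bases before each RefSeq start, for the members (Jag1 untrimmed) as for all genes, TGGGAA was in 0 of these 10 windows and in 21.6% of the 32851 windows of all genes, CACGTG in 1 of 10 (Nrarp) and in 6.02% of all, and CACNAG in 4 of 10 (Dll4, Notch1, Notch2 and Nrarp) and in 36.7% of all. These are matches of letters, not binding sites.

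Among the ligands, Jag1 gave the clearest difference of the 10 genes. Jag1 (ENSMUSG00000027276, chr2:137081456-137116644 on GRCm38, minus strand) encodes Jagged1, a membrane-bound ligand. Jag1 in the CAG organoids stood at 21.4 and 20.7 CPM in WT and at 59.5 and 43.5 CPM in KOCAG. Both KOCAG libraries were above both WT libraries, and the KOCAG libraries differed more from each other than the WT libraries did. The mean rose from 21.1 ± 0.503 to 51.5 ± 11.3 CPM (n = 2 per genotype, ± SD), 2.42-fold or a log2 fold change of 1.28 with an SE of 0.16 (edgeR, adjusted p = 0.000271). It was called under every alternative setting run in that experiment, with log2 fold changes from 1.02 to 1.49.

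Jag1 in KOIEC material did not pass the test. Jag1 in the IEC organoids stood at 21.4 and 22 CPM in WT and at 31.9 and 30.5 CPM in KOIEC. The groups did not overlap, as was the case for 38.9% of all genes in that experiment, and the log2 fold change was 0.52 with an SE of 0.19 (edgeR, unadjusted p = 0.0398 and adjusted p = 0.856). Jag1 in the crypts stood at 20.1, 30.3, 19.3 and 24.7 CPM in WT and at 33.4, 33.7, 27.8 and 17.8 CPM in KOIEC. The groups overlapped, since KOIEC replicate 4 was the lowest of the 8 libraries, and the log2 fold change was 0.26 with an SE of 0.22 (edgeR, adjusted p = 0.437). Among libraries of low mitochondrial ribosomal RNA it was 0.65 and in the middle class, where KOIEC replicate 4 is the only KO library, -0.47.

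Dll4 (ENSMUSG00000027314, chr2:119325784-119335962, plus strand) encodes Delta-like 4, which with Delta-like 1 carries the Notch signal to stem cells. Dll4 in the CAG organoids stood at 19.3 and 18 CPM in WT and at 25.2 and 24.1 CPM in KOCAG. Both KOCAG libraries were above both WT libraries, and the mean rose from 18.6 ± 0.893 to 24.6 ± 0.726 CPM (n = 2 per genotype, ± SD), or by 0.40 in log2 with an SE of 0.14 (edgeR, adjusted p = 0.0466). This call lay at the threshold and was lost under most alternatives, with adjusted p up to 0.252 when 1 library was left out. In KOIEC material the values lay on the other side. Dll4 stood at 13.3 and 13.6 CPM in WT and 10 and 12.2 CPM in KOIEC organoids, a log2 fold change of -0.28 with an SE of 0.25 (edgeR, adjusted p = 0.856). That value was -0.15 without KOIEC replicate 1 and -0.43 without KOIEC replicate 2. Dll4 in the crypts stood at 16.4, 17.3, 17.1 and 17 CPM in WT and at 13.3, 16.6, 15.1 and 13.9 CPM in KOIEC. WT replicate 1 and KOIEC replicate 2 were the only libraries to cross, and the log2 fold change was -0.20 with an SE of 0.11 (edgeR, adjusted p = 0.238; exact two-sided permutation p = 0.0571). It was -0.13 in the low and -0.29 in the middle class. The gene overlaps Gm14207 on the opposite strand, which was counted at 402 reads over all crypt libraries, 189 in the IEC and 170 in the CAG organoids, and whether the counting used strand is not stated.

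Dll1 (ENSMUSG00000014773, chr17:15367354-15376872, minus strand) encodes Delta-like 1, the ligand of early secretory progenitors. It showed no difference beyond its spread in any experiment. Dll1 in the crypts stood at 49.2, 46.9, 37.7 and 36.1 CPM in WT and at 34.9, 46.3, 46.6 and 37 CPM in KOIEC. Dll1 in the IEC organoids stood at 46.6 and 74.3 CPM in WT and at 56.2 and 75.6 CPM in KOIEC, and in the CAG organoids at 52.3 and 56.9 CPM in WT and at 52 and 54.3 CPM in KOCAG. The groups overlapped each time, with log2 fold changes of -0.04 (SE 0.14), 0.12 (SE 0.29) and -0.04 (SE 0.10) and adjusted p of 0.859, 0.930 and 0.805 in edgeR. The crypt value was -0.22 in the low and 0.034 in the middle class. Where the error was smallest, in the CAG organoids, the Dll1 estimate was near 0 while Jag1 and Dll4 were higher.

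**Figure D1:**
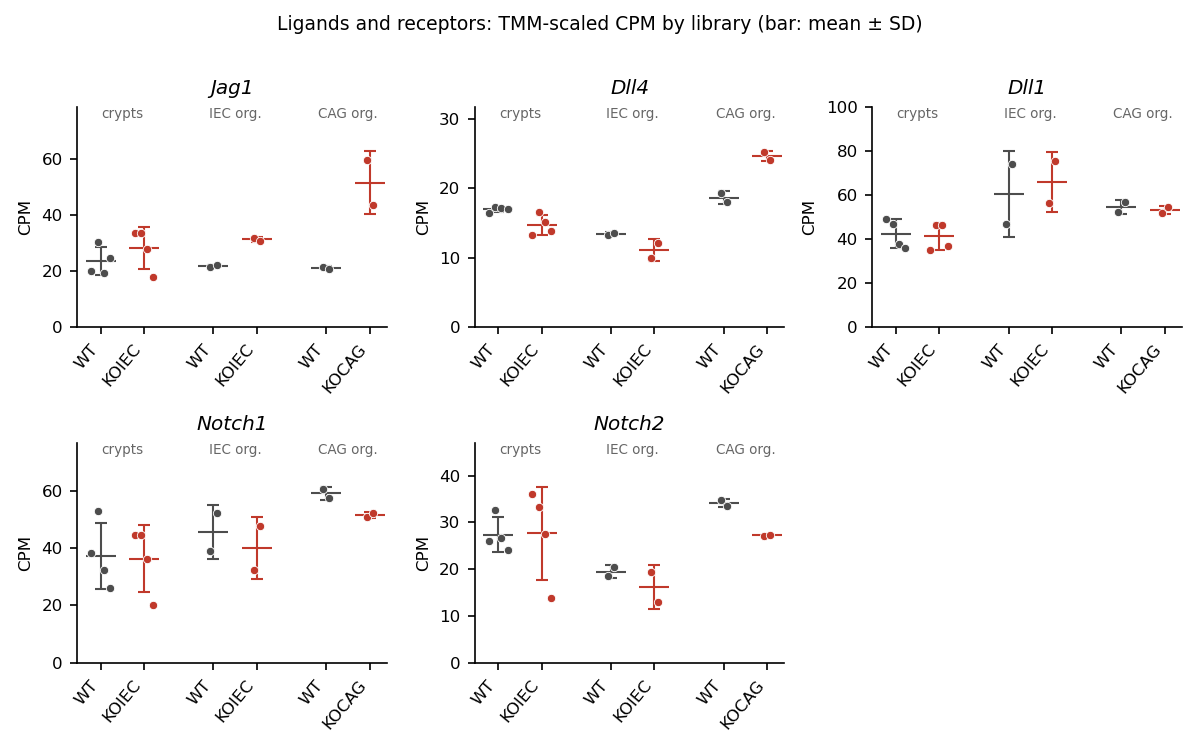
CPM of the 3 ligands and 2 receptors in each of the 16 libraries (1 point per library, replicates from left to right, horizontal bar and whiskers: mean ± SD; grey WT, red KO; each vertical axis starts at 0). Jag1 in the KOCAG organoids, at 43.5 and 59.5 CPM, lies above every other library, and KOIEC crypt replicate 4 is the lowest crypt library for Jag1, Notch1 and Notch2.

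The receptors did not pass the test in any experiment. Notch1 (ENSMUSG00000026923, chr2:26457903-26516663, minus strand), the main receptor of crypt stem cells, stood at 38.1, 52.9, 32.3 and 26 CPM in WT crypts and at 44.6, 44.4, 36.2 and 20 CPM in KOIEC crypts. The genotypes overlapped over most of their range, with a log2 fold change of -0.04 and an SE of 0.28 (edgeR, adjusted p = 0.936), 0.12 in the low and -0.38 in the middle class. Notch1 in the IEC organoids stood at 38.8 and 52.3 CPM in WT and at 32.2 and 47.7 CPM in KOIEC, overlapping, with a log2 fold change of -0.19 and an SE of 0.28 (edgeR, adjusted p = 0.885). Notch1 in the CAG organoids stood at 60.6 and 57.4 CPM in WT and at 50.9 and 52.3 CPM in KOCAG. There both KOCAG libraries were below both WT libraries, with a log2 fold change of -0.19 and an SE of 0.09 (edgeR, adjusted p = 0.141).

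Notch2 (ENSMUSG00000027878, chr3:98013527-98150361, plus strand), which can act beside Notch1 in the crypt, stood at 34.7 and 33.6 CPM in WT and at 27.1 and 27.3 CPM in KOCAG organoids. The groups did not overlap, and the log2 fold change of -0.33 with an SE of 0.11 lay just outside the threshold (edgeR, adjusted p = 0.0530). It lay inside it with DESeq2 size factors (adjusted p = 0.0496), scaling by library size alone (0.0389) and a replicate block (0.0441), and outside it in the other alternatives, with adjusted p up to 0.617 in 1 fit of all 16 libraries. Notch2 in the IEC organoids stood at 18.5 and 20.5 CPM in WT and at 19.5 and 12.9 CPM in KOIEC, with KOIEC replicate 2 the lowest (log2 fold change -0.27, SE 0.28, edgeR adjusted p = 0.858). The value rested on that library, since it was -0.00027 without it and -0.60 without KOIEC replicate 1. Notch2 in the crypts stood at 26.1, 32.6, 26.7 and 24.2 CPM in WT and at 36, 33.3, 27.5 and 13.8 CPM in KOIEC. KOIEC crypts held both the highest and the lowest library, and the log2 fold change was 0.01 with an SE of 0.26 (edgeR, adjusted p = 0.975), 0.30 in the low and -0.80 in the middle class, which holds KOIEC replicate 4.

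The targets report on the signal received. Hes1 (ENSMUSG00000022528, chr16:30064384-30067796, plus strand), the transcriptional repressor induced by cleaved Notch, was lower in KOCAG organoids. It stood at 81.6 and 80.3 CPM in WT and at 62.6 and 68.5 CPM in KOCAG. Both KOCAG libraries were below both WT libraries, and the mean fell from 80.9 ± 0.862 to 65.5 ± 4.18 CPM (n = 2 per genotype, ± SD), with a log2 fold change of -0.30 and an SE of 0.09 (edgeR, adjusted p = 0.0263). The call was lost with DESeq2 (adjusted p = 0.112), when either WT library was left out (adjusted p = 0.140 and 0.116) and in 1 fit of all 16 libraries (adjusted p = 0.512), while the log2 fold change stayed between -0.38 and -0.26.

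Hes1 in the crypts stood at 70.6, 57.9, 52.8 and 37.9 CPM in WT and at 45.7, 36, 41.3 and 29.2 CPM in KOIEC. Every KOIEC library was below WT replicates 1, 2 and 3, and only WT replicate 4 lay among the KOIEC libraries. The log2 fold change was -0.53 with an SE of 0.20, and it was the only member in the crypts at an unadjusted p under 0.05 (edgeR, p = 0.0241, adjusted p = 0.105; exact two-sided permutation p = 0.0857, where 0.0286 is the smallest possible). It was -0.79 in the low and -0.37 in the middle class, and leaving out 1 library at a time gave -0.65 to -0.37 with adjusted p from 0.0367 (without WT replicate 4, the 1 gain of a call) to 0.235 (without WT replicate 1) in edgeR. Hes1 in the IEC organoids stood at 93 and 102 CPM in WT and at 82.2 and 106 CPM in KOIEC, which overlapped, with a log2 fold change of -0.05 and an SE of 0.19 (edgeR, adjusted p = 0.957).

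Nrarp (ENSMUSG00000078202, chr2:25180758-25183339, plus strand) encodes a small ankyrin-repeat protein that is induced by Notch and dampens it. Nrarp in the crypts stood at 13.1, 15.1, 17.3 and 8.28 CPM in WT and at 13.5, 13.9, 11 and 7.08 CPM in KOIEC. Nrarp in the IEC organoids stood at 14.7 and 16.8 CPM in WT and at 11.9 and 13.7 CPM in KOIEC, and in the CAG organoids at 9.03 and 7 CPM in WT and at 7.09 and 5.67 CPM in KOCAG. The estimate was below 0 in all 3 experiments, with log2 fold changes of -0.24 (SE 0.27), -0.30 (SE 0.24) and -0.35 (SE 0.24), and passed the test in none (edgeR, adjusted p = 0.561, 0.856 and 0.304). Without single libraries these ran from -0.39 to -0.053 (nearest 0 without KOIEC replicate 4), from -0.40 to -0.20 and from -0.52 to -0.16 (nearest 0 without WT replicate 1). Groups were apart only in the IEC organoids, and the crypt value was -0.035 in the low and -0.22 in the middle class. Hey1 (ENSMUSG00000040289, chr3:8663359-8667256, minus strand), a target that is prominent in vessels, was at or under the floor, with 0 to 3 counts in each of the 16 libraries, so no fold is given.

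The secretory factors, which Hes1 holds down, showed no difference that passed the test. Atoh1 (ENSMUSG00000073043, chr6:64729125-64731245, plus strand), the transcription factor that commits progenitors to the secretory lineage, stood at 19.8, 23.3, 25.3 and 18.5 CPM in WT crypts and at 15.1, 22.5, 13.7 and 29.7 CPM in KOIEC crypts. The KOIEC libraries enclosed the WT range, with replicates 1 and 3 below every WT library and replicate 4 above every one. The log2 fold change was -0.10 with an SE of 0.24 (edgeR, adjusted p = 0.800), -0.24 in the low and 0.68 in the middle class. The lowest KOIEC library, replicate 3, also had the lowest Paneth marker sum. It had the highest goblet sum of the crypt libraries (12640 CPM) and the highest enteroendocrine sum of the KOIEC crypts (522.1 CPM). The highest, replicate 4, had the highest tuft marker sum and a Paneth sum of 19770 CPM. Replicate 2 had more Atoh1 than replicate 1 (22.5 against 15.1 CPM) and a lower Paneth sum (8836 against 14150 CPM). The part of these cell types in the Atoh1 levels was not tested. In bulk libraries, fewer cells of a type and less RNA per cell cannot be told apart.

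In the organoids Atoh1 did not pass the test. It stood at 12.4 and 11.5 CPM in WT and at 9.28 and 14.2 CPM in KOIEC organoids (log2 fold change -0.03, SE 0.31, edgeR adjusted p = 0.987). The KOIEC libraries lay on both sides of WT, and leaving out 1 library gave -0.37 to 0.25. Atoh1 in the CAG organoids stood at 19.4 and 19.7 CPM in WT and at 22 and 19.7 CPM in KOCAG (log2 fold change 0.09, SE 0.14, edgeR adjusted p = 0.671). Hes1 was thus lower in the CAG organoids without a difference in Atoh1 that passed the test.

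Gfi1 (ENSMUSG00000029275, chr5:107716657-107726036, minus strand), a zinc finger repressor that acts after Atoh1 in Paneth and goblet precursors, was the lowest of the tested members per length. It stood at 7.07, 5.47, 7.6 and 6.35 CPM in WT and at 3.7, 5.57, 5.41 and 6.99 CPM in KOIEC crypts. Its levels in the IEC organoids were 3.86 and 1.33 CPM in WT and 3.86 and 3.31 CPM in KOIEC, and in the CAG organoids 5.9 and 6.48 CPM in WT and 7.92 and 6.44 CPM in KOCAG. Groups overlapped each time, with log2 fold changes of -0.29 (SE 0.22), 0.46 (SE 0.58) and 0.20 (SE 0.24) and adjusted p of 0.380, 0.868 and 0.544 in edgeR. Leaving out 1 library at a time moved these from -0.42 to -0.15, from -0.12 to 1.43 and from 0.040 to 0.35. Within the crypt classes the log2 fold change was -0.54 (low) and 0.13 (middle).

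**Figure D2:**
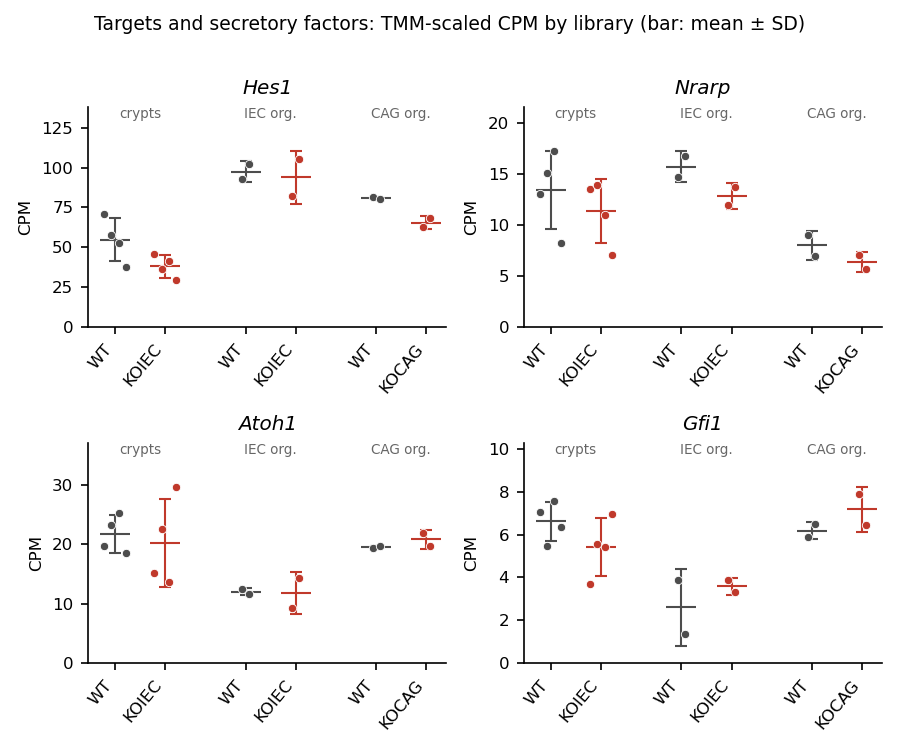
CPM of Hes1, Nrarp, Atoh1 and Gfi1 in each of the 16 libraries (1 point per library, replicates from left to right, horizontal bar and whiskers: mean ± SD; grey WT, red KO; each vertical axis starts at 0). In the KOCAG organoids Hes1, at 62.6 and 68.5 CPM, lies below WT at 80.3 and 81.6 CPM, while the Atoh1 libraries of KOIEC crypts, from 13.7 to 29.7 CPM, enclose those of WT.

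Counting only whether the libraries of a genotype stood apart gave a similar view. None of the 9 tested members (0) in the crypts was without overlap, against 17.5% of all genes tested. The IEC organoids had 3, Jag1 above (19.4% of all genes) and Dll4 and Nrarp below (19.4%), against 38.9% in both directions. The CAG organoids had 6, Jag1, Dll4 and Atoh1 above (35.5% of all genes) and Notch1, Notch2 and Hes1 below (34.2%), against 69.7%, though the nearest WT and KOCAG libraries of Atoh1 both round to 19.7 CPM. With 2 libraries per genotype an exact permutation test cannot go below p = 0.333, so the organoid calls rest on the spread that edgeR shares between genes.

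**Figure D3:**
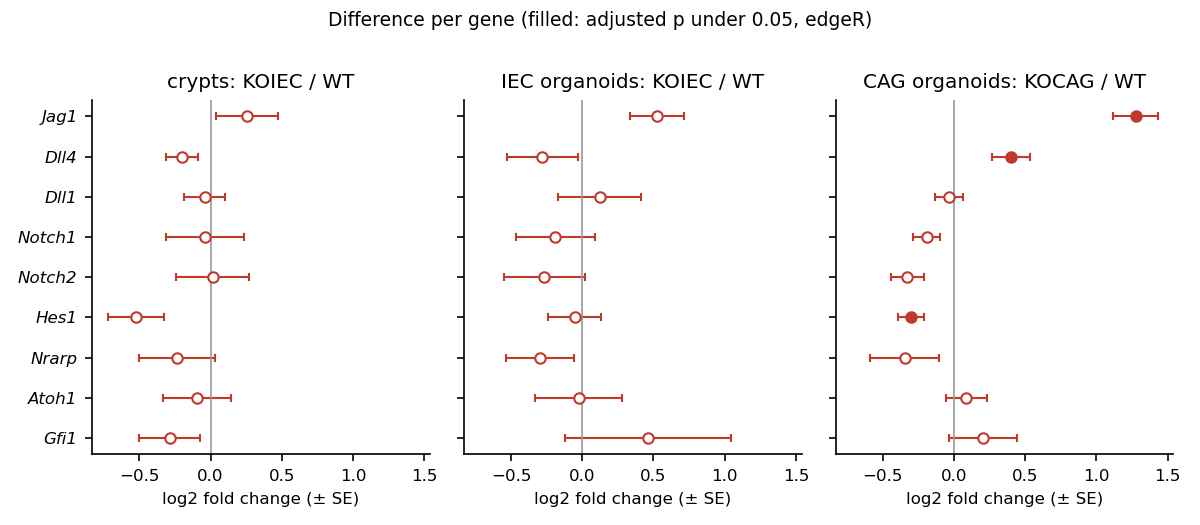
Log2 fold change of KO over WT with its SE for the 9 tested members, 1 panel per experiment (filled: adjusted p under 0.05 in edgeR; vertical line: no difference). Jag1, at 0.26, 0.52 and 1.28, and Nrarp, at -0.24, -0.30 and -0.35, have the same sign in each panel, while Dll4 has -0.20 and -0.28 in KOIEC material and 0.40 in KOCAG organoids.

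Whether the deletion acted differently between experiments was tested directly, as interaction terms in 1 edgeR fit of all 16 libraries over 15585 genes. Of the 9 members 0 were called in any of the 3 contrasts (2, 1 and 0 at an unadjusted p under 0.05 for CAG organoids minus crypts, CAG minus IEC organoids and IEC organoids minus crypts), in which 0.00642% (IEC organoids minus crypts), 0.372% (CAG organoids minus crypts) and 0.385% (CAG minus IEC organoids) of all genes were called. At an unadjusted p under 0.05 the shares of all genes were 14.4%, 10.9% and 6.96% in the order of the members' counts. Dll4 differed by 0.59 with an SE of 0.19 between the CAG organoids and the crypts (edgeR, unadjusted p = 0.00738, adjusted p = 0.173) and by 0.66 with an SE of 0.22 between the CAG and the IEC organoids (unadjusted p = 0.00916, adjusted p = 0.273). Jag1 differed by 1.02 with an SE of 0.34 between the CAG organoids and the crypts (edgeR, unadjusted p = 0.00933, adjusted p = 0.193) and by 0.74 with an SE of 0.39 between the CAG and the IEC organoids (adjusted p = 0.524). The Jag1 and Dll4 calls in KOCAG organoids were therefore not shown to be particular to them.

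Per kilobase of the deposited gene lengths, Hes1 was the most abundant member in each group, at 26.9 ± 6.66 CPM per kb in WT crypts (SD, n = 4), 47.9 ± 3.13 in WT IEC organoids and 39.7 ± 0.423 in WT CAG organoids (SD, n = 2 each). In WT crypts Atoh1 (10.2 ± 1.48 CPM per kb) and Dll1 (10.1 ± 1.55) followed, with overlapping ranges. Nrarp (5.20 ± 1.49), Dll4 (4.40 ± 0.106), Jag1 (4.05 ± 0.865), Notch1 (2.62 ± 0.806), Notch2 (2.54 ± 0.338) and Gfi1 (2.08 ± 0.290) came after them, each overlapping the next in range. Among the ligands of WT CAG organoids the order was Dll1 (12.9 ± 0.771 CPM per kb), Dll4 (4.84 ± 0.232) and Jag1 (3.62 ± 0.0863), with no overlap between neighbours. In KOCAG organoids Jag1, at 8.83 ± 1.95 CPM per kb, stood above Dll4, at 6.40 ± 0.189, and below Dll1, at 12.6 ± 0.391.

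The other genes of the pathway, 60 genes in 5 lists, followed the experiments in the same manner. In the crypts 2 of the 46 tested were called in edgeR, both higher, against 6.96% of all genes in either direction and 4.3% upward. There DESeq2 called 12, among 2457 of all genes, and a replicate block left 0. Of 51 tested in the IEC organoids 0 were called in edgeR and by DESeq2, against 0.00717% of all genes, and 3 were at an unadjusted p under 0.05, against 4.66%. The CAG organoids gave 17 of 50 in edgeR, 11 higher and 6 lower, against 31.5%. Of these, 7 were called by DESeq2 (2761 of all genes) and 1 in 1 fit of all 16 libraries (477 of all genes). The medians of their log2 fold changes were 0.10, 0.05 and 0.05 in the crypts, the IEC and the CAG organoids. Both crypt calls in edgeR came from the list of ligand endocytosis and receptor turnover, which was chosen to hold many ubiquitin ligases, so their shared function is no finding. Dtx3l, an E3 ligase known from interferon responses, stood at 47.6, 82.8, 42.2 and 69.4 CPM in WT and at 111.4, 154.7, 187.7 and 110.9 CPM in KOIEC (log2 fold change 1.22, SE 0.25, edgeR adjusted p = 0.0407). Itch, an E3 ligase that can mark Notch for turnover, stood at 82.1, 80.7, 91.4 and 100.4 CPM in WT and at 107.7, 124.6, 130 and 131.3 CPM in KOIEC (log2 fold change 0.48, SE 0.11, edgeR adjusted p = 0.0438). All KOIEC libraries were above all WT libraries for both genes, where 17.5% of all genes were without overlap in either direction. The log2 fold changes were 1.63 (Dtx3l) and 0.55 (Itch) in the low and 0.68 and 0.39 in the middle class. With the class as a term the estimates were 1.25 (SE 0.37) and 0.49 (SE 0.13), no longer called (edgeR, adjusted p = 0.211 and 0.208), in a model that called 2 of all genes.

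The other ligands and receptors held 2 calls among 5 tested in the CAG organoids, both higher, against 31.5% of all genes called and 18.1% called higher. Notch3, a receptor best known from mesenchymal and mural cells, stood at 2.77 and 2.59 CPM in WT and at 14.7 and 12.1 CPM in KOCAG (log2 fold change 2.31, SE 0.24, edgeR adjusted p = 0.000115), the largest difference of all pathway genes tested there. Dner, a membrane protein that can bind Notch, stood at 1.20 and 1.30 CPM in WT and at 2.92 and 4.04 CPM in KOCAG (log2 fold change 1.49, SE 0.37, edgeR adjusted p = 0.0129). Notch3 was not higher in the IEC organoids, at 3.34 and 5.64 CPM in WT and 3.25 and 3.17 CPM in KOIEC (log2 fold change -0.48, SE 0.40, adjusted p = 0.856), and it was under the filter in the crypts, at 0.53 to 1.32 CPM. Notch4, a receptor of endothelium, and Jag2, a Jagged ligand, were not called anywhere, with log2 fold changes of -0.34 and -0.01 in the crypts, -0.69 and -0.85 in the IEC organoids and -0.21 and -0.07 in the CAG organoids.

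Of the 13 tested genes of receptor glycosylation and cleavage, 2 were called in the CAG organoids, against 31.5% of all genes. Lfng, the Fringe glycosyltransferase that alters which ligands a receptor answers to, fell from 25.1 and 23.2 CPM in WT to 14.5 and 17.7 CPM in KOCAG (log2 fold change -0.57, SE 0.15, edgeR adjusted p = 0.0170). Lfng was lower in every KOIEC organoid library than in WT, as 19.4% of all genes were, at 11.8 and 4.73 against 17.5 and 17.5 CPM (adjusted p = 0.856). Its crypt estimate was -0.41 (SE 0.16, adjusted p = 0.114, low class -0.50, middle class -0.15). Furin, the protease that matures the receptor, was higher in KOCAG (log2 fold change 0.31, adjusted p = 0.0400). Adam10, which makes the first ligand-induced cleavage, had log2 fold changes of 0.08, 0.20 and -0.20 in the crypts, the IEC and the CAG organoids, and was called in none of them in edgeR.

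Of the 11 tested genes of ligand endocytosis and receptor turnover 3 were called in the CAG organoids, near the 31.5% of all genes. Neurl1b, an E3 ligase that promotes ligand uptake, was higher (log2 fold change 0.59, adjusted p = 0.0105), as was Dtx3l (0.46, adjusted p = 0.0233), and Numb, an inhibitor of Notch, was lower (-0.26, adjusted p = 0.0321).

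The nuclear complex held 7 calls among 15 tested genes in the CAG organoids, 4 higher and 3 lower, against 31.5% of all genes called, 18.1% higher and 13.4% lower. Rbpj, the DNA-binding partner of the cleaved receptor, fell from 47 and 52.5 CPM in WT to 34.1 and 37.7 CPM in KOCAG, where both KOCAG libraries were below both WT libraries (log2 fold change -0.47, SE 0.11, edgeR adjusted p = 0.0102). In KOIEC material Rbpj had log2 fold changes of -0.05 (crypts, SE 0.10, adjusted p = 0.722; low class 0.11, middle class -0.31) and -0.03 (IEC organoids, SE 0.17, adjusted p = 0.975). Maml3, a coactivator of the complex, was lower (-0.41, adjusted p = 0.0336) and its relative Maml2 higher from a low level (1.14, adjusted p = 0.0375). The corepressors Tle1 (0.40, adjusted p = 0.00493) and Tle4 (0.42, adjusted p = 0.0167) were higher.

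Among the other targets, 3 of 6 tested were called in the CAG organoids, against 31.5% of all genes. Ccnd1, cyclin D1, was higher (log2 fold change 0.66, adjusted p = 0.000344), Hes2 was higher from 0.36 and 2.07 CPM to 4.17 and 3.46 CPM (1.65, adjusted p = 0.0385), and Myc was lower (-0.34, adjusted p = 0.0105); Ccnd1 and Myc also answer to other pathways, Wnt among them. Olfm4, a Notch-dependent gene of crypt stem cells, was not called. Olfm4 in the crypts stood at 1443, 1575, 2051 and 1247 CPM in WT and at 1210, 1279, 771.1 and 1030 CPM in KOIEC, with a log2 fold change of -0.56 and an SE of 0.20 (edgeR, adjusted p = 0.100), -0.44 in the low and -0.28 in the middle class. Olfm4 in the IEC organoids stood at 1761 and 2820 CPM in WT and at 1019 and 13.7 CPM in KOIEC, so replicate 2 set the log2 fold change of -2.15 (SE 1.66, adjusted p = 0.856). Olfm4 in the CAG organoids had a difference of -0.11 (SE 0.13, adjusted p = 0.569).

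Of 22 transcription factors of the secretory lineages, 9 of the 21 tested were called in the CAG organoids in edgeR, all 9 higher, against 18.1% of all genes called higher. DESeq2 called 5 of them, and 1 fit of all 16 libraries called 0. Neurog3, which starts the enteroendocrine fate, stood at 11.2 and 13.6 CPM in WT and at 21.1 and 23.3 CPM in KOCAG (log2 fold change 0.85, SE 0.16, edgeR adjusted p = 0.00340). Neurod1, its target, stood at 6.02 and 5.05 CPM in WT and at 12.7 and 13.2 CPM in KOCAG (log2 fold change 1.22, SE 0.21, edgeR adjusted p = 0.00165). Rfx6 (0.79, adjusted p = 0.00577) and Insm1 (0.68, adjusted p = 0.0125), factors of endocrine differentiation, were higher as well, as was Klf4, a factor of goblet and differentiated cells (0.60, adjusted p = 0.00191). Spdef, the goblet and Paneth factor downstream of Atoh1, had a log2 fold change of 0.17 (SE 0.12, adjusted p = 0.310).

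In KOIEC material the same factors gave 0 calls, of 19 tested in the crypts and of 21 in the IEC organoids (edgeR; 1 and 0 by DESeq2), where 6.96% and 0.00717% of all genes were called. At an unadjusted p under 0.05 there were 3 and 5, against 31.9% and 4.66% of all genes. In the crypts 16 of the 19 had a log2 fold change below 0, with a median of -0.24. Neurog3 there stood at 3.58, 3.39, 3.92 and 3.30 CPM in WT and at 3.59, 2.37, 2.33 and 2.02 CPM in KOIEC (log2 fold change -0.46, SE 0.23, edgeR adjusted p = 0.192; low class -0.38, middle class -0.66), with KOIEC replicate 1 among the WT libraries and the other 3 below them. Its log2 fold change in the IEC organoids was -0.38 (SE 0.30, adjusted p = 0.856).

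**Figure D4:**
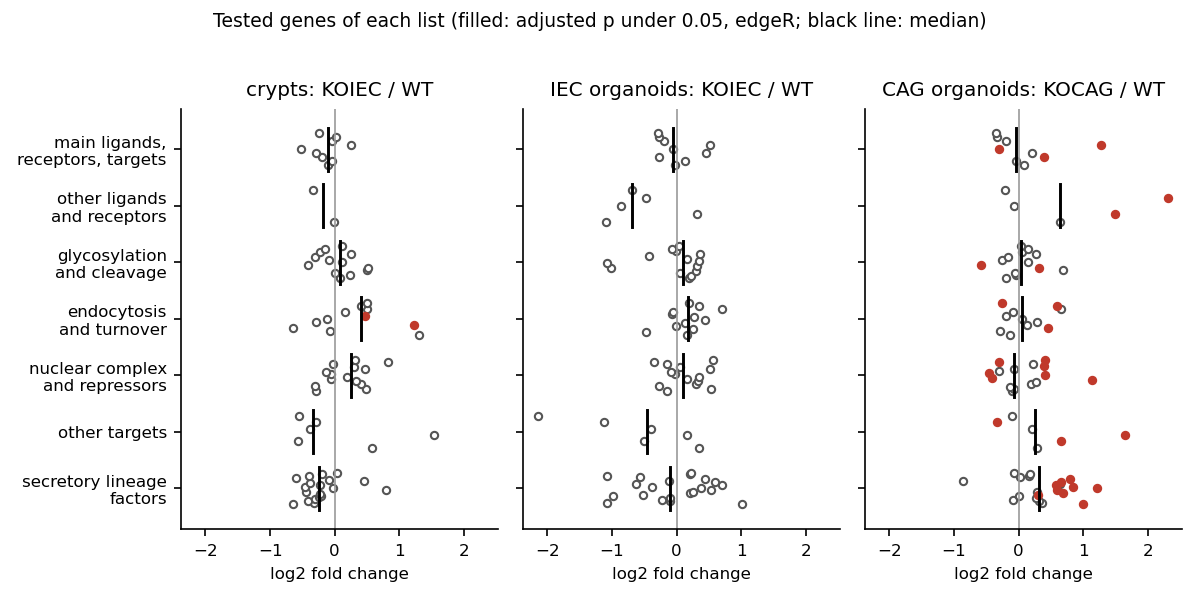
Log2 fold change of KO over WT for each tested gene of the 7 lists, 1 panel per experiment (1 point per gene, filled: adjusted p under 0.05 in edgeR; black line: median of the list). The 9 filled secretory factors of the CAG organoids all lie above 0 and the filled pathway genes lie on both sides, with 11 above and 6 below; in the crypts Dtx3l and Itch are filled.

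Markers of cell types moved with these values in the CAG organoids. Of all genes tested there, 18.1% were called higher and 13.4% lower in KOCAG. All 10 enteroendocrine markers were called higher in KOCAG, with sums of 913.8 and 955.7 CPM in WT and 2380 and 2261 CPM in KOCAG and Chgb the most abundant. Enterocyte markers (9 of 10 called higher, Apoa1 the most abundant) rose from 5138 and 5502 to 14690 and 11580 CPM, goblet markers (7 of 7, Fcgbp) from 5378 and 5157 to 8872 and 8243 CPM, and Paneth markers (8 of 10, Defa24) from 5568 and 5138 to 9239 and 8648 CPM. Stem cell markers (4 of 8 called lower and 1 higher, Slc12a2) fell in sum from 3286 and 3439 to 2311 and 2637 CPM. In the same libraries Hes1, Rbpj and Myc were lower, and Jag1, Dll4 and Neurog3 higher. Not all genes named above moved in this way: Olfm4, Dll1, Atoh1 and Spdef were not called, and Ccnd1 was higher. The part of cell composition in these differences was not tested.

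Non-epithelial markers were low in the organoids. Endothelium, a known source of Dll4, Jag1, Notch4 and Hey1, had marker sums of 11.1 and 12.8 CPM in WT and 10.3 and 13.6 CPM in KOCAG, with overlapping sums, 1 of 3 tested markers called lower, Esam as the most abundant gene, and Cdh5, Emcn and Kdr at 0 in all 4 libraries. Mesenchymal and smooth muscle markers, which mark cells that can express Jag1 and Notch3, summed to 15.1 and 18.9 CPM in WT and 28.2 and 23.2 CPM in KOCAG; Vim, at a mean of 18.4 CPM over the 4 libraries, made up most of that sum, Acta2 and Lum were at 0 in all 4 libraries, and 1 of the 2 tested markers was called higher. Leukocyte markers summed to 1.08 and 1.68 CPM in WT and 7.92 and 5.29 CPM in KOCAG, with Csf1r the most abundant and the only one tested, called higher, and Cd8a at 0. Markers of enteric neurons and glia summed to 3.73 and 3.24 CPM in WT and 2.64 and 2.21 CPM in KOCAG, lower without overlap. The part of mesenchymal cells and leukocytes in the Jag1 and Notch3 differences was not tested.

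In the KOIEC material the markers moved with genotype less evenly. In the crypts enterocyte markers, with Apoa1 the most abundant, summed to 7254, 3791, 2588 and 11290 CPM in WT and to 10520, 16620, 20950 and 20900 CPM in KOIEC (0 of 10 called, 9 at an unadjusted p under 0.05 against 31.9% of all genes, and all 10 with a log2 fold change above 0, with a median of 1.52). Stem cell markers, with Slc12a2 the most abundant, summed there to 1127, 1269, 1350 and 996.6 CPM in WT and 1120, 991.3, 757.3 and 791 CPM in KOIEC (2 of 8 called lower, against 6.96% of all genes called in either direction). WT replicate 4, with the lowest Hes1 of the WT libraries, also had the lowest stem cell and the highest enterocyte sum among them. WT replicate 1, with the highest Hes1 (70.6 CPM), did not follow this order. Its stem cell sum of 1127 CPM lay below those of the remaining WT libraries (1269 and 1350 CPM). Its enterocyte sum of 7254 CPM lay above theirs (3791 and 2588 CPM). Mesenchymal and smooth muscle markers, low throughout, were lower in KOIEC crypts without overlap, at 16.4, 18.2, 20.7 and 17.4 CPM in WT and 11, 11.2, 10.8 and 12.8 CPM in KOIEC (0 of 4 tested called, Vim the most abundant). Of single genes, 17.5% were without overlap there in either direction. Markers of enteric neurons and glia were also apart, at 1.37 to 3.87 CPM in WT and 0.424 to 1.10 CPM in KOIEC crypts, and endothelial markers overlapped, at 6.51 to 8.06 CPM in WT and 4.24 to 6.53 CPM in KOIEC. Paneth, goblet, enteroendocrine and tuft sums of the crypts overlapped between genotypes as well. Stem cell markers of the IEC organoids summed to 1844 and 2223 CPM in WT and 1413 and 846.2 CPM in KOIEC (0 of 8 called). Paneth markers summed to 2569 and 4230 CPM in WT and 1875 and 2476 CPM in KOIEC (0 of 10 called, 4 at an unadjusted p under 0.05, against 4.66% of all genes). Endothelial markers summed to 10.2 and 12.5 CPM in WT and 5.96 and 4.79 CPM in KOIEC. Each of these sums was lower in KOIEC without overlap, as 19.4% of single genes were. Sums of leukocyte markers and of enteric neuron and glia markers, both low, were higher without overlap, as 19.4% of single genes were. Goblet and enteroendocrine sums overlapped, with 7 of 7 and 9 of 10 markers above 0 in log2 fold change and 0 called. The part of these cell types in the Hes1, Dll4 and Olfm4 values was not tested.

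**Figure D5:**
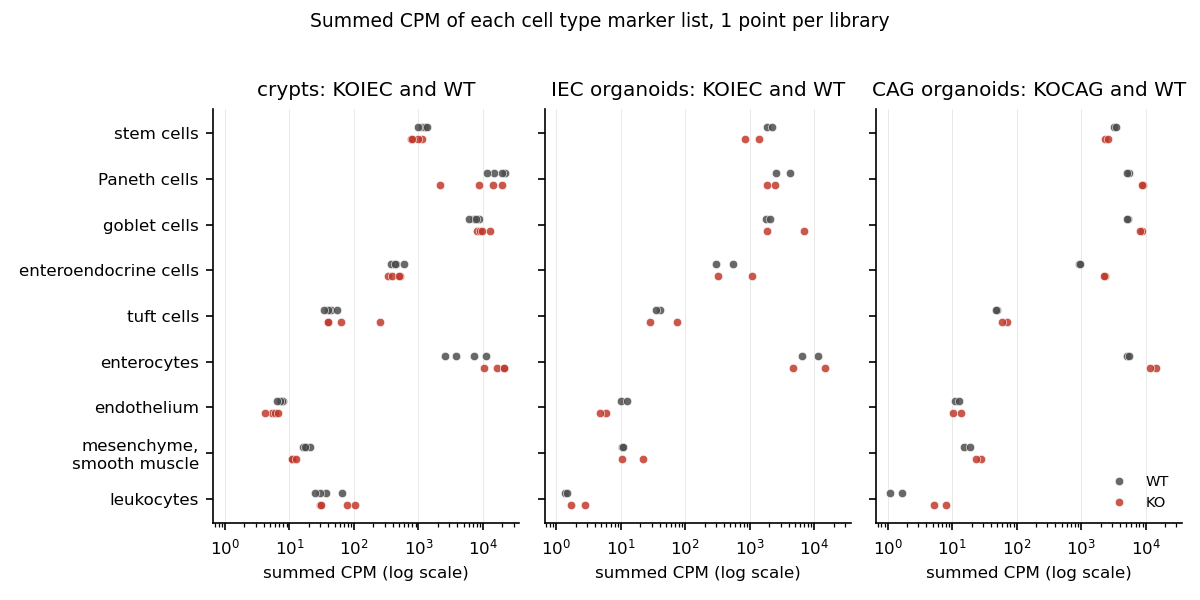
Summed CPM of 9 lists of cell type markers (logarithmic axis), 1 point per library, with WT in grey above KO in red and 1 panel per experiment. For CAG organoids the enteroendocrine, enterocyte, goblet and Paneth sums of KOCAG lie above those of WT and the stem cell sums below, while endothelial sums, from 10.3 to 13.6 CPM, overlap.

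Across the 16 libraries, each experiment centred on its own mean, the genes whose log2 CPM ran most like Hes1 were Gm6472 (Pearson r = 0.919), Pycrl (0.912), R3hdm4 (0.909), Mrpl45 (0.901) and Gm10073 (0.900), and those that ran most against it were Ube2a (-0.910), Capza2 (-0.910), Naaa (-0.894), Ube2d3 (-0.893) and Pgap1 (-0.882), out of 12477 genes compared. For Atoh1 they were Ramp1 (0.824), Duoxa2 (0.824), Nrep (0.791), Mctp2 (0.790) and Gm7327 (0.770), against Traf3ip1 (-0.823), Aebp2 (-0.782), Zbed4 (-0.778), Hnrnpul2 (-0.771) and Bcl2l11 (-0.742). These are descriptions: the libraries share genotype, depth and class of mitochondrial ribosomal RNA, and Gm6472, Gm10073 and Gm7327 are predicted genes whose reads may be shared with copies elsewhere.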

How the data were processed

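The data are RNA-seq of 16 libraries. The authors deposited a table for each of the 3 experiments, with unnormalized read counts and gene lengths in bases; libraries were made and sequenced by Novogene, and the submitters' processing notes name HISAT2 2.0.5 and featureCounts 1.5.0-p3. Genome build, annotation and strand use are not given in the sources used here, and the positions of all 10 members and Cul4b equal those of GENCODE M21 on GRCm38. Genotypes and replicate numbers came from the labels, and no column was left out.

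Each experiment was fitted alone, KO against WT (edgeR 4.0.16 under R 4.3.3, with filterByExpr, TMM, its quasi-likelihood test and Benjamini-Hochberg adjustment over all genes tested), and the SE was derived from the fold change and its F statistic. Scripts were tested on counts simulated with the estimated spread of each experiment. Of simulated 2-fold changes, 50% were called in the crypts, 0% in the IEC organoids and 79.8% in the CAG organoids. Of 4-fold changes, 93.5%, 43.2% and 96.9% were called, with 4, 3 and 19 false calls. A gene that was not called in the IEC organoids is therefore not shown to be unchanged. Mitochondrial ribosomal RNA is relative to total counts, with class bounds at 100 and 2000 CPM. Of 2 rows with the symbol Itgam the one with more counts was used.

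The members and lists were chosen with earlier results of these data known. Named were all members, Cul4b, the called genes of each list (at most the 6 with the smallest p), Rbpj, Adam10, Notch3, Notch4, Jag2, Lfng, Olfm4, Spdef and Neurog3, and the 5 genes most and least like Hes1 and Atoh1; some genes that this rule names are not reported here. Alternatives were DESeq2 1.42.0, other scalings and filters, a replicate block, a class covariate, 1 fit of all libraries, and leaving out each library.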

Additional observations from a re-analysis of the deposited data

How the results depend on the processing

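Among the members and Cul4b, the called differences that kept their direction and their call under each alternative that tested them were Cul4b in the crypts (removed by the filter of 10 counts in every library) and CAG organoids and Jag1 in the CAG organoids (for Jag1 adjusted p from 4.84e-19 without a filter to 0.0311 in the fit of all libraries, both in edgeR). Cul4b in the IEC organoids was not called without WT replicate 1 (-5.40, edgeR adjusted p = 0.451) or WT replicate 2 (-5.60, adjusted p = 0.230). Leaving out a library of a pair leaves an arm with 1 library, which is assumed to vary like the others. Hey1, with at most 3 counts in a library, was below what this depth can test. The cause of each change below was not tested.

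Members called in the CAG organoids numbered 3, and 1 with DESeq2, with a 2-fold minimum and in 1 fit of all 16 libraries, and 1 to 3 without single libraries; the 1 was Jag1. Dll4 was lost with DESeq2 size factors (adjusted p = 0.0502), library size scaling (0.0615), a stricter filter of 10 counts per library (0.0531), no filter (0.0614), DESeq2 (0.218) and the fit of all libraries (0.172). In the crypts 0 to 1 member was called without single libraries (Hes1, without WT replicate 4). For CAG organoids minus crypts 1 member, Jag1, was called without a filter (1.04, adjusted p = 0.0182).

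All genes called in the crypts numbered 934, and 1479 without a filter, 2457 with DESeq2, 240 with a 2-fold minimum, 1659 in the fit of all libraries, 2 with the class covariate, 1 without WT replicates 2 and 3 (chosen after seeing the data), and 2 to 2468 without single libraries. The IEC organoids gave 1, and 223, 26 and 18 without a filter, with DESeq2 and in the fit of all libraries, and 0 to 2322 without single libraries, the highest without KOIEC replicate 1. The CAG organoids gave 4278, and 2761, 1169 and 477 with DESeq2, a 2-fold minimum and the fit of all libraries, and 2789 to 5177 without single libraries.

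Pathway genes called in the crypts numbered 2, and 1 with library size scaling, 4 without a filter, 12 with DESeq2, 1 with a 2-fold minimum, 6 in the fit of all libraries, 0 with the class covariate and without WT replicates 2 and 3, and 0 to 10 without single libraries. The IEC organoids had 0, 2 without a filter and 0 to 13 without single libraries. The CAG organoids had 17, and 7, 4 and 1 with DESeq2, a 2-fold minimum and the fit of all libraries, and 6 to 21 without single libraries. Secretory factors called numbered 1 in the crypts without a filter and with DESeq2 and 0 to 1 without single libraries, 1 in the IEC organoids without a filter and 0 to 4 without single libraries, and in the CAG organoids 9, and 5, 2 and 0 with DESeq2, a 2-fold minimum and the fit of all libraries, and 5 to 10 without single libraries.

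WT and KO libraries share replicate numbers. Same-numbered crypt libraries deviated together with r of -0.0437, 0.190, -0.395 and 0.434 across genes, and the organoid pairs with 0.342 (IEC) and 0.0669 (CAG). The labels name nothing that a number stands for and not every crypt pair deviated together, so the libraries were not treated as pairs; in the IEC organoids the numbers also follow the class of mitochondrial ribosomal RNA, and the block there left 1 gene called. With a replicate block 4 genes and 0 pathway genes were called in the crypts, Notch2 turned to -0.059 there, and Notch2 was called in the CAG organoids (-0.33, adjusted p = 0.0441).

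Some uncalled log2 fold changes turned sign. Notch2 in the crypts turned to -0.068 with library size scaling, -0.0051 without a filter and -0.14 with the class covariate, Atoh1 in the crypts to 0.15 with the class covariate, and without WT replicates 2 and 3 Notch1 turned to 0.18, Nrarp to 0.093 and Atoh1 to 0.082. Of the differences between experiments, Dll1 (CAG organoids minus crypts) turned to 0.0051 with DESeq2 size factors, 0.063 with library size scaling and 0.017 without a filter, and Notch1 (CAG minus IEC organoids) to 0.028 and 0.0071 with library size scaling and without a filter.

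Without single libraries the ranges of those that turned were as follows. In the crypts they were Atoh1 -0.33 to 0.066, Dll1 -0.10 to 0.045, Notch1 -0.16 to 0.17 and Notch2 -0.14 to 0.25. For the IEC organoids they were Atoh1 -0.37 to 0.25, Dll1 -0.17 to 0.48, Gfi1 -0.12 to 1.43, Hes1 -0.24 to 0.11 and Notch1 -0.50 to 0.064. For the CAG organoids they were Atoh1 -0.0059 to 0.17 and Dll1 -0.11 to 0.019. For IEC organoids minus crypts they were Atoh1 -0.26 to 0.38, Dll1 -0.12 to 0.54, Dll4 -0.21 to 0.089, Notch1 -0.45 to 0.14 and Nrarp -0.22 to 0.12. For CAG organoids minus crypts they were Dll1 -0.078 to 0.061 and Nrarp -0.29 to 0.083. For CAG minus IEC organoids they were Atoh1 -0.21 to 0.43, Dll1 -0.54 to 0.11, Gfi1 -1.24 to 0.31, Notch1 -0.31 to 0.28, Notch2 -0.35 to 0.22 and Nrarp -0.24 to 0.13.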

Other observations

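Ratios between members, chosen after their values had been seen, were computed per library from CPM per kb. Jag1 made up 17.5% and 16.4% of the summed ligands Dll1, Dll4 and Jag1 in the WT CAG organoids and 35.1% and 28% in KOCAG. Its share in the IEC organoids was 20.2% and 15.1% in WT and 25.6% and 19.9% in KOIEC, which overlapped. Among the crypts it was 17.8%, 25%, 19.9% and 24.6% in WT and 32.8%, 27.4%, 24.2% and 19.8% in KOIEC (exact two-sided permutation p = 0.286, and 0.666 adjusted over 6 ratios compared).

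The ratio of Hes1 to Atoh1, per kb, was 4.38 and 4.25 in the WT CAG organoids and 2.97 and 3.62 in KOCAG, where exact permutation cannot go below p = 0.333. The IEC organoids had 7.83 and 9.20 in WT and 9.23 and 7.72 in KOIEC. Crypt libraries had 3.72, 2.59, 2.17 and 2.13 in WT and 3.15, 1.67, 3.14 and 1.03 in KOIEC, with KOIEC replicate 4 the lowest (exact two-sided permutation p = 0.457, and 0.686 adjusted over 6).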
